A study of Mus musculus with 8 samples.

Results

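The 47 genes described here encode histones. They were chosen by name, as every gene on the array whose name began with Hist1h to Hist4h, H2af, H3f3 or H1f. Of these, 34 belong to the replication-dependent Hist clusters (6 H1, 11 H2A, 8 H2B, 3 H3 and 6 H4) and 13 are separate variants. A gene counted as measured if, in 1 group or more, both arrays had Cy3 signal well above background. That held for 45 of the 47 histone genes and 22812 of the 27962 gene names on the array. H2afy2 and Hist1h2be did not meet that rule.

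Histones package DNA into nucleosomes, with H2A, H2B, H3 and H4 in the core and H1 on the linker DNA. The cluster genes are transcribed mainly in S phase, lack introns, and yield messages that end in a stem-loop instead of a poly(A) tail. Variants such as H2A.Z (H2afz), H3.3 (H3f3a and H3f3b), macroH2A1 (H2afy) and H1.0 (H1f0) are made outside S phase as well, from polyadenylated messages.

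RNA came from MC3T3-E1, a mouse osteoblast line, co-cultured with tumour cells that carried an empty vector or overexpressed Jagged1, a ligand of Notch receptors. Co-cultures were given MRK-003, which blocks the gamma-secretase step of Notch activation, or DMSO as its solvent. That made 4 groups of 2 biological replicates, named below by tumour cell and treatment. The series asked which osteoblast transcripts depend on tumour Jagged1 and on Notch. The sources used here do not name the tumour line or its species, nor say whether osteoblasts were separated from tumour cells. In such bulk RNA, less RNA per cell and fewer cells of a kind cannot be told apart.

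On each array Cy3 marked the co-culture RNA and Cy5 a purchased reference of mouse RNA, and a level below is log2 of Cy3 over Cy5 after loess normalization. Replicate 1 of each group was on slide 1 and replicate 2 on slide 2. Slide 2 was dimmer, with a median Cy3 signal of 76.5 to 117 against 165 to 204 on slide 1, with 71.4% to 78.6% of spots well above background in Cy3 against 86.0% to 89.4%. The Notch target Hey1 stood 3.76 higher on the log2 scale in Jagged1 DMSO than in vector DMSO (limma, adjusted p = 0.00231), and lower in Jagged1 MRK-003 than in Jagged1 DMSO (log2 change -5.29, adjusted p = 0.000353). Dtx4 differed by 1.75 and -3.14 in the same comparisons, so both genes followed the labels. The 12 osteoblast markers had mean levels of 0.93 to 1.74 over the 8 arrays and the 9 measured of 12 epithelial markers -2.81 to -2.57, with Cdh1, Cldn4 and Esrp1 not measured.

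Coding sequences within a histone class are much alike, and some probes share long runs of bases. Of the 45 probes, 11 shared a run of at least 20 bases with another histone probe, in 4 families. The family that carried the main difference was that of 3 H4 genes, shown first with the 29-base run common to all 3 in capitals. All were 60-base probes in mm7 coordinates: Hist1h4f at chr13:22917373-22917432 on the minus strand, Hist1h4d at chr13:22947598-22947657 on the plus strand and Hist2h4 at chr3:96136980-96137039 on the minus strand.
Hist1h4f: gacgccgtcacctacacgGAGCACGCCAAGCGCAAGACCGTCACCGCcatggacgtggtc
Hist1h4d: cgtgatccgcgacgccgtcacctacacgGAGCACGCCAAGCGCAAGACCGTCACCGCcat
Hist2h4: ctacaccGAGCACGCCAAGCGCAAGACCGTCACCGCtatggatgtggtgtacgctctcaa
Hist1h4f and Hist1h4d shared a longer run of 50 bases. These 3 probes may read some of the same messages, which was not tested, so their values are not counted as 3 independent readings.

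The H2B family shared 26 bases and is shown because its 3 probes, with 58.3% G and C, had differences of -0.02 to 0.04 with Jagged1 in DMSO. They lie at chr11:59035740-59035799 on the minus strand (Hist3h2bb), chr13:21402048-21402107 on the plus strand (Hist1h2bk) and chr13:21088259-21088318 on the plus strand (Hist1h2bm).
Hist3h2bb: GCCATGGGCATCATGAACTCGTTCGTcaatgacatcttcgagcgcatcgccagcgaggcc
Hist1h2bk: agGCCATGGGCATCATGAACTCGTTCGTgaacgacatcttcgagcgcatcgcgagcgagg
Hist1h2bm: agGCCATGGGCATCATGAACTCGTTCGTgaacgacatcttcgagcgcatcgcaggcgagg
Hist1h2bk and Hist1h2bm differed at 2 positions.

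An H2A family (Hist1h2af, Hist1h2aa and H2afj) shared 29 bases, and Hist1h2ai and Hist1h2ak shared 26. Of the 67 histone probes on the array, 3 held at least 10 consecutive letters of the message stem-loop, all in cluster genes. The 16 letters searched were read from the Hist1h3a probe as its inverted repeat and are in capitals here, within 30 bases of that probe (chr13:23127689-23127748, minus strand).
Hist1h3a: aattaaccaaaGGCTCTTTTCAGAGCCaca
The labelling protocol names a T7 promoter primer, without saying whether it carried oligo-dT.

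The largest differences of like size on both slides were in H4. In DMSO, 4 H4 probes (Hist1h4a, Hist1h4d, Hist1h4f and Hist2h4) read 1.10 to 1.20 higher on the log2 scale with Jagged1 tumour cells than with vector cells, about 2.14-fold to 2.30-fold. The difference was present on both slides, at 0.95 to 1.29 on slide 1 and 0.98 to 1.40 on slide 2. With Jagged1 cells, MRK-003 co-cultures read lower than DMSO co-cultures on the same 4 probes (log2 changes -0.94 to -0.75), by unlike amounts on the slides (-0.75 to -0.38 on slide 1 and -1.49 to -0.86 on slide 2).

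Hist1h4f, the brightest H4 probe, had raw Cy3 signals of 4870 and 1184 in vector DMSO, 11553 and 2201 in Jagged1 DMSO, 11609 and 1343 in vector MRK-003 and 7058 and 1576 in Jagged1 MRK-003 (slides 1 and 2). Its levels were -1.78 and -2.85, -0.49 and -1.74, -0.79 and -2.73, and -1.24 and -2.79 in the same order. Jagged1 DMSO was the highest group on each slide, but slide 1 lay above slide 2 in every group, so the groups overlapped across slides. Without regard to slide the difference of Jagged1 from vector in DMSO was 1.20 ± 0.82 (SE, n = 2 per group, limma, adjusted p = 0.79). With slide as a block it was 1.20 ± 0.19 (adjusted p = 0.0232).

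Hist1h4d had levels of -1.89 and -2.92 in vector DMSO, -0.68 and -1.90 in Jagged1 DMSO, -0.85 and -2.88 in vector MRK-003 and -1.30 and -2.90 in Jagged1 MRK-003. Hist2h4 had -1.85 and -2.83, -0.64 and -1.85, -0.70 and -2.67, and -1.28 and -2.71. Both repeated the order seen for Hist1h4f, with which they share sequence. Their Jagged1 differences in DMSO, 1.12 and 1.10, passed the threshold with slide as a block (limma, adjusted p = 0.0396 and 0.0386) and not without it (0.802 for both). A second Hist1h4d probe gave 0.81 with Jagged1 in DMSO and -0.46 with MRK-003 and Jagged1 cells. On slide 1 that probe did not repeat the order, at -1.31 in Jagged1 DMSO, -0.84 in vector MRK-003 and -1.29 in Jagged1 MRK-003.

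The Hist1h4a probe (chr13:23126834-23126893, minus strand, 73.3% G and C) shared no run of 20 bases with the other probes used. It did share one with a second Hist1h4d probe, so it may read some of the same messages, which was not tested. Hist1h4a had levels of -0.63 and -1.19 in vector DMSO, 0.32 and 0.21 in Jagged1 DMSO, 0.04 and -1.19 in vector MRK-003 and -0.06 and -1.28 in Jagged1 MRK-003. Both Jagged1 DMSO arrays lay above all 6 other arrays. The difference of 1.17 ± 0.51 did not pass (limma, adjusted p = 0.65, and 0.0588 with slide as a block). Hist4h4 read 0.33 ± 0.40 higher (adjusted p = 0.876, and 0.521 with the block).

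The 6th H4 entry behaved otherwise. The probe named Hist1h4i, assigned through an expressed sequence tag, had levels of 0.15 and -0.03 in vector DMSO, -0.16 and -0.39 in Jagged1 DMSO, 0.23 and 0.38 in vector MRK-003 and 0.14 and 0.19 in Jagged1 MRK-003. Jagged1 DMSO was the lowest group on both slides. Its difference with Jagged1 in DMSO was -0.33 ± 0.12 (limma, adjusted p = 0.55, and 0.172 with the block), and MRK-003 averaged over both co-cultures differed by 0.34 (adjusted p = 0.128, and 0.0457 with the block).

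**Figure D1:**
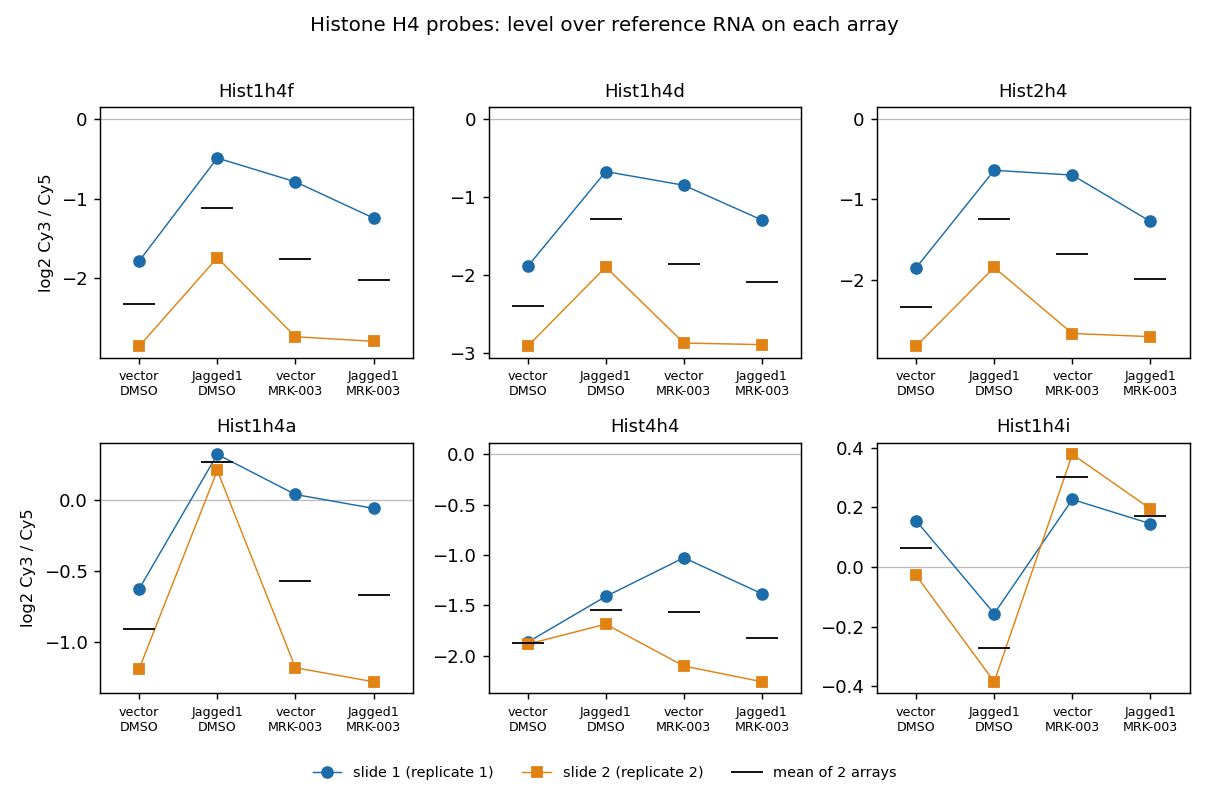
Level of each of the 6 H4 probes (vertical axis, log2 Cy3 over Cy5) in the 4 groups (horizontal axis). Circles are slide 1, squares slide 2, thin lines join arrays of 1 slide and black bars are means of 2 arrays. Hist1h4f, Hist1h4d, Hist2h4 and Hist1h4a are highest in Jagged1 DMSO on each slide, and Hist1h4i is lowest there.

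The vector MRK-003 array of slide 1 set a limit on the H4 reading. On that slide the 4 probes were 0.67 to 1.15 higher in vector MRK-003 than in vector DMSO, and on slide 2 only 0.01 to 0.16 higher. Leaving out 1 of the 4 DMSO arrays, with no block, left slides unmatched and moved the Jagged1 difference of Hist1h4f in DMSO to between 0.58 and 1.83. With 1 of the 4 arrays with Jagged1 cells left out in the same way, the change of Hist1h4f with MRK-003 and Jagged1 cells lay between -1.67 and -0.13. That of Hist1h4d lay between -1.61 and -0.0097. The interaction, which subtracts the Jagged1 difference under MRK-003 from the one under DMSO, was 1.27 to 1.46 for the 4 probes and did not pass (Hist1h4f 1.46 ± 1.16, limma, adjusted p = 0.999, and 0.096 with the block).

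Probe composition moved with these readings. Over 22812 genes the Jagged1 difference in DMSO correlated with the G and C content of the probe (Pearson r = 0.25 across genes, which share the same 4 arrays), and the 113 genes with at least 65% had a median difference of 0.39. Among the 45 histone genes r was 0.48. After each array was corrected for probe G and C content, with slide as a block, the 4 H4 probes read 0.77 to 0.96 higher with Jagged1 in DMSO (Hist1h4f 0.88, limma, adjusted p = 0.0226, Hist1h4d 0.80, 0.0462, Hist2h4 0.96, 0.0347, Hist1h4a 0.77, 0.0451). This correction was added after the data were seen. It stayed constant above the mean G and C content of the highest class, at least 65%, so Hist1h4a may be corrected too little. Before correction, the H2B family at 58.3% G and C, whose probes share sequence, differed by -0.02 to 0.04. The 8 histone genes with at least 65% included the H4 probes Hist1h4a (73.3%), Hist1h4f and Hist1h4d (both 66.7%), while Hist2h4 had 58.3%. Of the others in that class, Hist2h3c1 and Hist1h2ai, both at 68.3%, differed by -0.31 and 0.16, and H1fx by 1.48. The reference signal was saturated on 6 arrays for Hist2h3c1 and on 5 for H1fx. The part of probe composition in the H4 readings was not tested further.

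**Figure D2:**
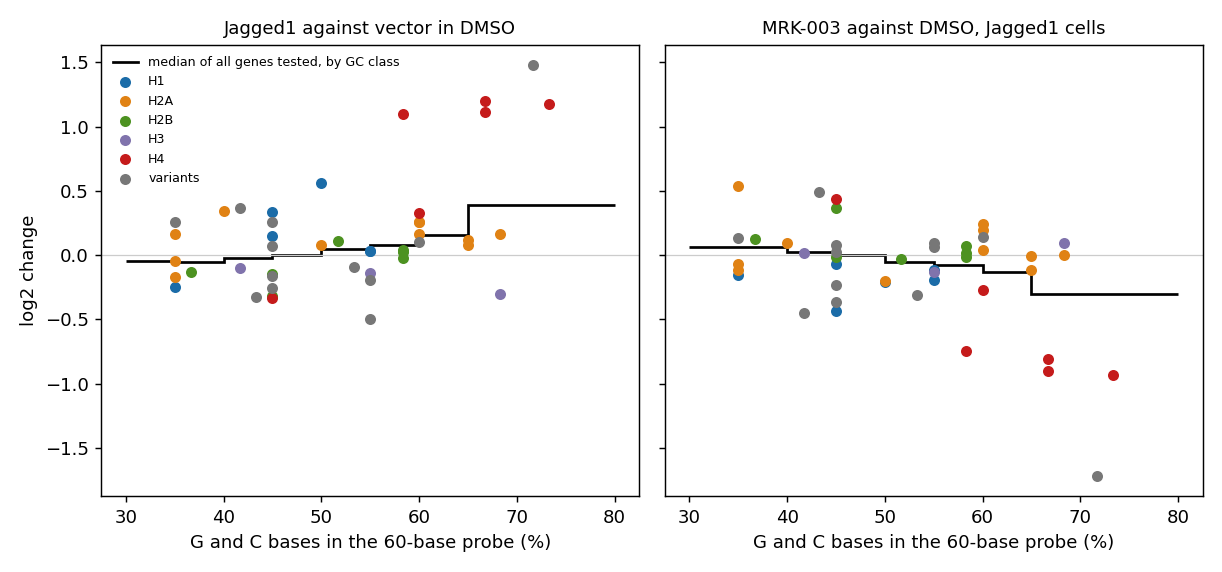
Log2 change of each histone gene (points, coloured by class) against the percentage of G and C bases in its probe, for Jagged1 against vector in DMSO (left) and MRK-003 against DMSO with Jagged1 cells (right). The black steps are medians of all genes tested by G and C class, with the end classes drawn to the panel's edges. In both panels 4 H4 points lie beyond the step of their class, and the far point at 71.7% is H1fx.

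With Jagged1 against vector in DMSO, 0 of 45 passed in limma, beside 41 of all genes (0.18%). At an unadjusted p under 0.05 there were 3 of 45, beside 1784 of all 22812 genes. With slide as a block 3 of 45 passed, the 3 H4 genes of the shared family, which is 6.67% beside 3.88% of all genes. The median difference of the 45 was 0.08, beside -0.01 over all genes. On both slides 18 of 45 were higher (40.0%, beside 31.3% of all genes) and 11 lower (24.4%, beside 34.2%). Both Jagged1 arrays lay above both vector arrays for 5 of 45 (20.1% of all genes) and below them for 7 (21.8% of all genes).

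**Figure D3:**
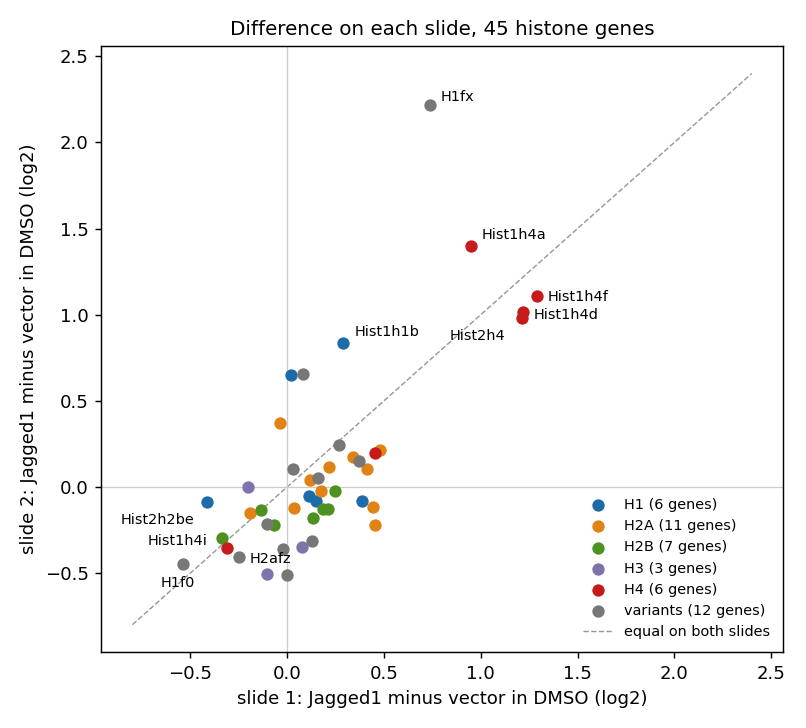
Jagged1 minus vector in DMSO for each of the 45 histone genes on slide 1 (horizontal axis, log2) and slide 2 (vertical axis, log2), coloured by class, with a dashed line of equality. Hist1h4f, Hist1h4d, Hist2h4 and Hist1h4a lie near 1 on both axes, and Hist1h4i, H2afz, Hist2h2be and H1f0 are below 0 on both.

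Linker histones had mixed differences. Hist1h1b (H1.5) had levels of -1.21 and -2.37 in vector DMSO and -0.92 and -1.54 in Jagged1 DMSO, higher on each slide by 0.29 and 0.83, and -0.78 and -1.74, and -0.87 and -2.0 in the vector and Jagged1 MRK-003 groups. The difference of 0.56 ± 0.55 did not pass (limma, adjusted p = 0.848, and 0.0767 with the block). Hist1h1e (H1.4) had -1.02 and -1.73, -1.0 and -1.08, -1.14 and -2.40, and -0.73 and -2.22 in the order used above. Its slides disagreed in the effect of MRK-003 with Jagged1 cells, at 0.27 and -1.14. All 6 H1 genes had mean log2 changes from -0.43 to -0.07 in that comparison, but only 2 of 6 were lower on both slides (30.6% of all genes). With or without the block 0 of 6 passed.

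Among H2A genes, 9 of 11 had a higher mean with Jagged1 in DMSO, beside 11003 of all 22812 genes. The median of the 11 was 0.16, and 0 passed with or without the block. On both slides 5 of 11 were higher (31.3% of all genes) and 1 lower (34.2% of all genes). The largest difference was that of Hist1h2ab, whose levels of -0.87 and -1.26 in vector DMSO and -0.40 and -1.05 in Jagged1 DMSO differed by 0.35 ± 0.36 (limma, adjusted p = 0.853). Hist1h2af, the brightest, had -0.48 and -1.56 in vector DMSO and -0.14 and -1.38 in Jagged1 DMSO, and its reference signal was saturated on all 8 arrays, so its levels are bounds. Hist1h2aa and H2afj had saturated reference signals on all 8 arrays as well, and Hist2h2ac on 7.

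Hist2h2aa2 and Hist1h2ae were the H2A genes that read lower, and Hist2h2aa2 differed more. Its levels were 0.98 and 0.66 in vector DMSO, 0.79 and 0.51 in Jagged1 DMSO, 1.07 and 1.02 in vector MRK-003 and 1.28 and 1.10 in Jagged1 MRK-003. Both Jagged1 MRK-003 arrays lay above both Jagged1 DMSO arrays, by 0.54 ± 0.15 (limma, adjusted p = 0.167), and with slide as a block this passed (± 0.10, adjusted p = 0.0166). Its second probe differed by 0.31 in the same comparison.

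The 7 measured H2B genes had differences of -0.32 to 0.11 with Jagged1 in DMSO. The lowest was Hist2h2be, a gene whose message is known in polyadenylated form, with levels of -0.39 and -0.37 in vector DMSO, -0.73 and -0.67 in Jagged1 DMSO, -0.31 and -0.21 in vector MRK-003 and -0.27 and -0.41 in Jagged1 MRK-003. Both Jagged1 DMSO arrays lay below all 6 others, and both slides gave close values (-0.34 and -0.30). The difference of -0.32 ± 0.10 did not pass (limma, adjusted p = 0.395, and 0.115 with the block), nor did the 0.36 ± 0.10 with MRK-003 and Jagged1 cells (0.143, and 0.0519 with the block). Hist3h2bb, the brightest H2B probe, had -1.38 and -1.34 in vector DMSO and -1.20 and -1.47 in Jagged1 DMSO, a difference of 0.03 ± 0.12.

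The 3 H3 genes had mean differences of -0.31 to -0.10 with Jagged1 in DMSO, and 0 passed with or without the block. Only 1 of 3 was lower on both slides (34.2% of all genes). Hist1h3a was dim, with a mean Cy3 signal of 57.9 and 7 arrays well above background. Hist2h3c1 had levels of 0.10 and -0.33 in vector DMSO, -0.00 and -0.84 in Jagged1 DMSO, -0.09 and -0.60 in vector MRK-003 and -0.17 and -0.48 in Jagged1 MRK-003, with its reference saturated on 6 arrays. Its groups overlapped, and its slides differed more than its groups. Hist1h3d had -0.49 and -0.36, -0.41 and -0.71, -0.48 and -0.79, and -0.59 and -0.79 in the same order. It differed by -0.14 ± 0.16 with Jagged1 in DMSO and by -0.13 ± 0.16 with MRK-003 and Jagged1 cells. Its reference signal was saturated on 4 arrays, all of slide 1, so its levels there are bounds.

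H2afz encodes H2A.Z, the variant found at the nucleosomes that flank promoters. Its levels were -0.43 and -0.61 in vector DMSO, -0.68 and -1.02 in Jagged1 DMSO, -0.19 and -0.45 in vector MRK-003 and -0.21 and -0.51 in Jagged1 MRK-003. Jagged1 DMSO was the lowest group on each slide, and both of its arrays lay below the other 6. With Jagged1 cells, H2afz was 0.49 ± 0.17 higher under MRK-003 (1.40-fold, limma, adjusted p = 0.272), and this passed with slide as a block (± 0.08, adjusted p = 0.0142). A dim H2afz probe, well above background on 5 arrays and placed on another chromosome by the file headers, gave 0.16 there and -0.05 with Jagged1 in DMSO. The difference of -0.33 ± 0.17 with Jagged1 in DMSO did not pass (0.739, and 0.085 with the block). The reference signal was saturated on 4 arrays, all of slide 1.

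H1f0, the linker variant H1.0 that gathers in cells leaving the cell cycle, had levels of -0.60 and -0.43 in vector DMSO, -1.14 and -0.88 in Jagged1 DMSO, -0.69 and -1.11 in vector MRK-003 and -0.78 and -1.05 in Jagged1 MRK-003. Both Jagged1 DMSO arrays lay below both vector DMSO arrays, by -0.49 ± 0.18 (limma, adjusted p = 0.556, and 0.18 with the block). The other probes of H1f0 gave -0.52 and -0.49. Under MRK-003 with Jagged1 cells the slides disagreed, at 0.37 and -0.17.

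H1fx had the largest differences of any histone gene and the widest spread. The probe used, assigned through an expressed sequence tag, had levels of 0.36 and -1.88 in vector DMSO, 1.09 and 0.33 in Jagged1 DMSO, 0.89 and -2.81 in vector MRK-003 and 0.91 and -2.91 in Jagged1 MRK-003. Its difference with Jagged1 in DMSO was 1.48 ± 1.60 (limma, adjusted p = 0.86, and 0.284 with the block). Its reference signal was saturated on 5 arrays and its Cy3 signal on 2. The other H1fx probe read 1.10 and 0.91 in vector DMSO and 0.64 and 0.65 in Jagged1 DMSO, a difference of -0.36, so the probes disagreed in direction.

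The remaining variants varied less. H2afy (macroH2A1) had levels of -0.92 and -1.33 in vector DMSO, -0.84 and -0.68 in Jagged1 DMSO, -1.15 and -1.50 in vector MRK-003 and -0.89 and -1.52 in Jagged1 MRK-003, with both Jagged1 DMSO arrays above the other 6. Its difference with Jagged1 in DMSO was 0.37 ± 0.25 (limma, adjusted p = 0.787, and 0.303 with the block), and 0.43 and 0.24 on its other probes. H2afx, the variant phosphorylated at DNA breaks, differed by -0.16 ± 0.14. H3f3a and H3f3b, the H3.3 genes, differed by -0.09 and -0.25, with saturated reference signals on 4 and 6 arrays. Other probes gave 0.03 and 0.10 for H3f3a, the other direction, and -0.44 for H3f3b. Among the 12 measured variants 6 read higher and 6 lower with Jagged1 in DMSO.

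**Figure D4:**
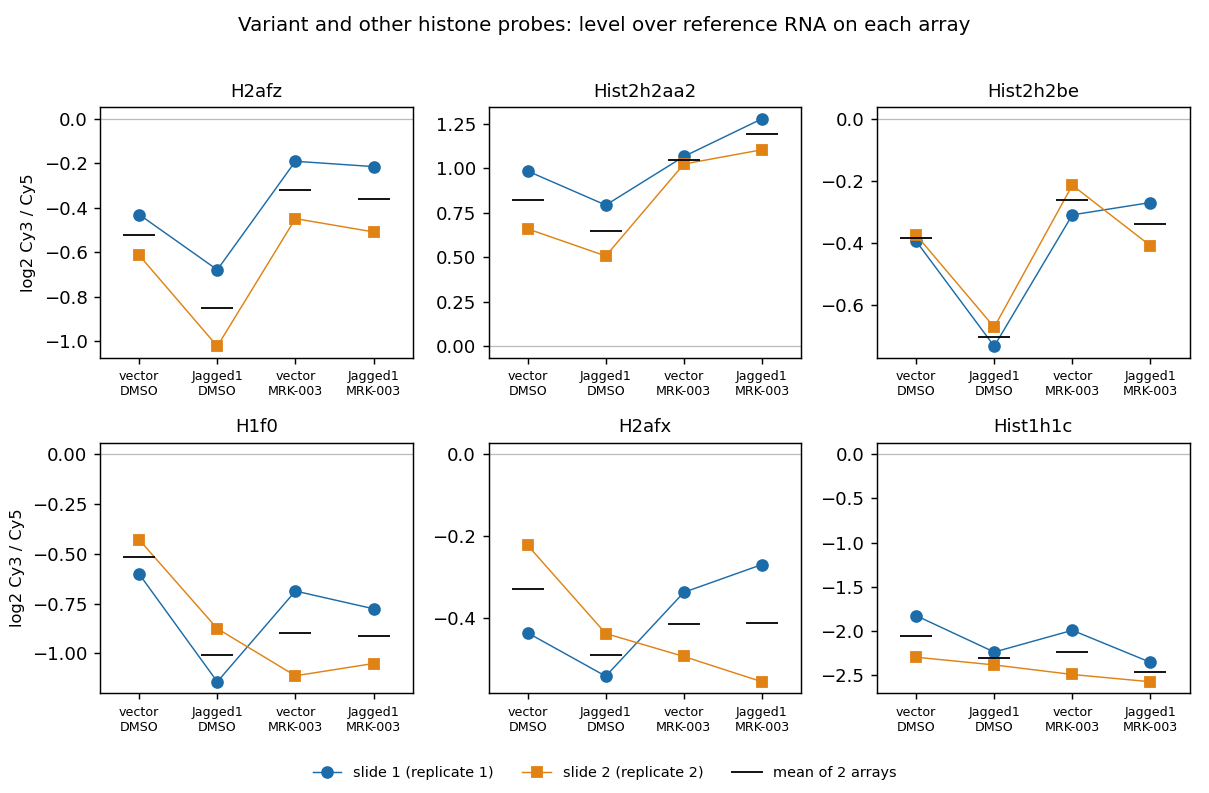
Levels (log2 Cy3 over Cy5) of H2afz, Hist2h2aa2, Hist2h2be, H1f0, H2afx and Hist1h1c in the 4 groups, drawn as for the H4 probes, each on its own vertical scale. H2afz, Hist2h2aa2 and Hist2h2be are lowest in Jagged1 DMSO on each slide, and the slides of H1f0 and H2afx cross.

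MRK-003 against DMSO with Jagged1 cells gave 0 of 45 histone genes in limma, beside 2.2% of all genes. At an unadjusted p under 0.05 there were 4 of 45, beside 3119 of all 22812 genes. With slide as a block 3 passed, Hist1h4f lower (-0.90, adjusted p = 0.0303) and H2afz and Hist2h2aa2 higher, which is 6.67% beside 9.78% of all genes. This comparison shares the Jagged1 DMSO arrays with the one in DMSO. On both slides 8 of 45 were higher (17.8%, beside 34.1%) and 15 lower (33.3%, beside 30.6%). Both MRK-003 arrays lay above both DMSO arrays for 4 of 45 (23.9% of all genes) and below them for 8 (20.8% of all genes).

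MRK-003 in vector co-cultures and Jagged1 in MRK-003 were the comparisons that left the Jagged1 DMSO group out, and in them no histone gene passed in limma. With MRK-003 against DMSO in vector co-cultures 0 of 45 passed with or without the block, beside 0% of all genes and 0.0307% with the block. At an unadjusted p under 0.05 there were 0 of 45, beside 931 of all 22812 genes. With the block these were 11 of 45, beside 2362 of all genes. The median of the 45 was 0.12, and 21 of 45 were higher on both slides (46.7%, beside 28.6%) and 9 of 45 lower (25.8% of all genes). Both MRK-003 arrays lay above both DMSO arrays for 7 of 45 (13.8% of all genes) and below them for 3 (12.3%). With Jagged1 against vector in MRK-003 0 of 45 passed, beside 0% of all genes, with and without the block. There 0 of 45 had an unadjusted p under 0.05, beside 47 of all genes, and with the block 1 of 45, beside 244. The median of the 45 was -0.10, and 21 of 45 were lower on both slides (46.7%, beside 24.4%) and 2 higher (4.44%, beside 27.3%). This comparison shares the vector MRK-003 arrays, with opposite sign, with the one in vector co-cultures, so the counts of the comparisons are not independent. Both Jagged1 arrays lay below both vector arrays for 8 of 45 (7.71% of all genes) and above them for 1 (8.39%). The interaction and the MRK-003 average both include the Jagged1 DMSO arrays. The interaction gave 0 of 45 beside 0.00877% (0.39% with the block). MRK-003 averaged over both co-cultures gave 0 beside 2.03%, or 3 with the block (H2afz, Hist2h2aa2 and Hist1h4i) beside 9.3%.

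Against the reference RNA, 28 of 45 histone genes read below it on all 8 arrays and 1, Hist2h2aa2, above it on all 8, beside 6266 and 5203 of all 22812 genes. These levels keep any dye bias, since dyes were not swapped. On slide 2, 23 of 45 read lower than on slide 1 in all 4 groups and 3 higher, and the same was not counted over all genes. The median of slide 1 minus slide 2 was 0.18 to 0.37 in the 4 groups for histone genes, beside -0.05 to -0.02 over all genes.

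Genes that act with histones in S phase were read on the same arrays. The shares of all genes to set beside this list and those that follow are these. With Jagged1 in DMSO 0.18% passed in limma, 3.88% passed with the block, and 1784 of 22812 had an unadjusted p under 0.05. With MRK-003 and Jagged1 cells 2.2% passed, and 9.78% with the block. The S phase and DNA replication list, 41 of 42 genes measured, read lower with Jagged1 in DMSO for 41 of 41, by a median of -0.49, and 0 passed in limma (30 at an unadjusted p under 0.05, and 15 adjusted with the block, all lower). The smallest p values were those of Mcm10 (-0.59 ± 0.09, adjusted p = 0.081, and 0.0146 with the block), a replication initiation factor, and Cdc6 (-0.61 ± 0.09, 0.0816, and 0.0157 with the block), which loads the MCM helicase. With MRK-003 and Jagged1 cells 41 of 41 read higher, by a median of 0.59, and 14 rose past the threshold without the block (31 with it). Among them were Mcm3, Mcm4, Mcm7, Mcm10, Pcna, Rrm1, Rrm2, Cdc6, Pole, Prim1, Gins1, Rfc5 and Uhrf1, and the changes ran from 0.53 to 1.13. In both comparisons their sign was opposite to that of Hist1h4f and the same as that of H2afz and Hist1h4i, and no difference between them and the histone genes was tested. Their probes held 31.7% to 55.0% G and C.

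Of 31 measured histone chaperone and chromatin assembly genes, out of 32, 19 read lower and 12 higher with Jagged1 in DMSO (median -0.21), 0 passed in limma (8 at an unadjusted p under 0.05), and 5 fell with the block. Chaf1b, a subunit of the CAF-1 complex that places H3 and H4 on new DNA, had levels of 0.24 and 0.48 in vector DMSO, -0.52 and -0.32 in Jagged1 DMSO, 0.53 and 0.72 in vector MRK-003 and 0.58 and 0.76 in Jagged1 MRK-003. Both Jagged1 DMSO arrays lay below the other 6. The difference with Jagged1 was -0.78 ± 0.14 (limma, adjusted p = 0.126, and 0.0048 with the block). With MRK-003 and Jagged1 cells Chaf1b rose by 1.09 ± 0.14 (adjusted p = 0.0176), the only one of the 31 to pass without the block, beside 9 with it. Hat1, which acetylates new H4, differed by -0.42 and 0.44 (adjusted p = 0.21 and 0.0759, and 0.0499 and 0.0242 with the block).

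Of the 25 genes for histone message synthesis and 3′ end processing, 14 read lower and 11 higher with Jagged1 in DMSO (median -0.06), and 0 passed with or without the block (2 at an unadjusted p under 0.05). Slbp, which binds the stem-loop, had levels of -0.03 and 0.32 in vector DMSO, -0.47 and -0.40 in Jagged1 DMSO, -0.07 and 0.70 in vector MRK-003 and -0.13 and 0.75 in Jagged1 MRK-003. Slbp was named for its role after its values were seen, and Jagged1 DMSO was its lowest group on each slide. Cstf2, a cleavage factor, differed by -0.40 ± 0.11 (limma, adjusted p = 0.326, and 0.0765 with the block) and Pou2f1, the octamer-binding Oct-1, by 0.37 (0.587, and 0.136 with the block). With MRK-003 and Jagged1 cells 0 of the 25 passed, and 3 rose with the block, Cstf2 (0.54, adjusted p = 0.0182), Thex1 and Ncbp2. Casp8ap2 differed by 0.49 (0.26 without the block). Of 20 other chromatin genes 18 read lower with Jagged1 in DMSO (median -0.28), and 0 passed in limma (7 at an unadjusted p under 0.05), with the smallest p for Hmgn1 (-0.42, adjusted p = 0.404, and 0.0819 with the block) and Suz12 (-0.49, 0.461, and 0.0674 with the block). With the block Hmgn3 fell and Hmga1 rose.

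**Figure D5:**
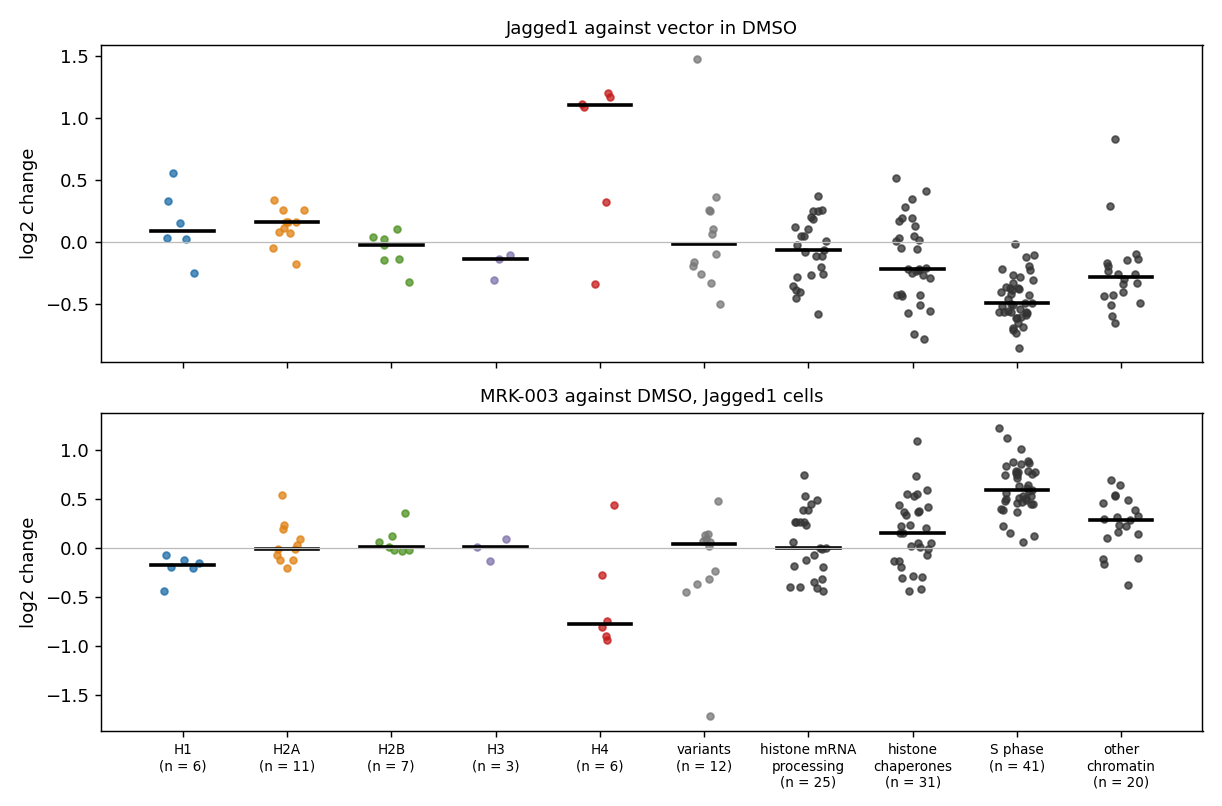
Log2 change of every measured gene (points) and the median (black bars) for the 6 histone classes and 4 related lists, with Jagged1 against vector in DMSO above and MRK-003 against DMSO with Jagged1 cells below. The S phase genes lie below 0 in the upper panel and above 0 in the lower, while the H4 median is 1.11 above and -0.78 below.

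Markers of other cells were read on the same arrays. In Jagged1 against vector in DMSO, 0 of the 9 epithelial markers passed with or without the block (median 0.16), and their mean level was -2.81 to -2.74 in vector DMSO and -2.61 to -2.57 in Jagged1 DMSO. The 9 macrophage markers had a median of 0.00, with mean levels of -2.76 to -2.68 and -2.69 to -2.64. Of 12 osteoblast markers 0 passed in limma (4 at an unadjusted p under 0.05) and 3 fell with the block, beside 3.88% of all genes, and their mean level was 1.33 to 1.66 in vector DMSO and 0.93 to 1.34 in Jagged1 DMSO. The 6 muscle and fibroblast markers all read higher with Jagged1 in DMSO (median 0.15), the 5 measured of 6 endothelial markers had a median of -0.05, and 0 of either list passed with or without the block. With MRK-003 and Jagged1 cells 1 osteoblast marker rose without the block (Omd, 2.16, limma, adjusted p = 0.0375) and 5 with it, and the mean level of that list was 1.35 to 1.72 in Jagged1 MRK-003. In that comparison 1 muscle and fibroblast marker fell without the block (Pdgfra, -1.08, adjusted p = 0.0303) and 2 with it, and 0 epithelial, macrophage or endothelial markers passed with or without it. Their part in the histone readings was not tested.

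RefSeq promoters (build GRCm38.p6) were matched to 34 of the 45 genes through their current symbols. On either strand CCAAT was found in 29 of 34 (85.3%, beside 37.4% of all 32851 promoters), TATAAA in 19 (55.9%, beside 13.6%) and the octamer ATTTGCAT in 10 (29.4%, beside 1.74%). The octamer was in 6 of 10 H2A, 3 of 4 H2B and 0 of 4 H4 promoters. GGTCCG, letters of the H4 promoter element that the factor Hinfp binds, was in 3 of 4 H4 promoters, 1 of 8 variant promoters and 0 of the other classes, beside 8.25% of all promoters. CCAAT and the octamer can share bases where they adjoin, and a match is only a match of letters.

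The 250 bases upstream of Hist1h4f (current symbol H4c6, chr13:23551669-23551918, minus strand) and of H2afz (H2az1, chr3:137864237-137864486, plus strand) are shown because these genes differed in opposite directions, with matches to the searched words in capitals.
Hist1h4f: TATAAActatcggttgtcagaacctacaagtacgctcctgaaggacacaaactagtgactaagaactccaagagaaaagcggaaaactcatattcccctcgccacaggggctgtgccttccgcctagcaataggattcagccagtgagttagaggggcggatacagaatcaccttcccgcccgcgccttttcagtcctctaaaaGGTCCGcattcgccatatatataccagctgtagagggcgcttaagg
H2afz: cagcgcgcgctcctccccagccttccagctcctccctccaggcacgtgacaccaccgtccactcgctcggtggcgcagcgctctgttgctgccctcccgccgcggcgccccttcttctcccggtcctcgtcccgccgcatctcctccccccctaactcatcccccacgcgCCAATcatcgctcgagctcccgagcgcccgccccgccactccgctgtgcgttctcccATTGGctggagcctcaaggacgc
Hist1h4f held 1 TATAAA and 1 GGTCCG, and H2afz held CCAAT once on each strand.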

How the data were processed

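Agilent mouse 2-colour arrays were scanned and extracted with Feature Extraction 9.5.3.1, per the file headers, which give probe positions in mm7. The authors deposited un-normalized intensity per spot, from which each spot's mean signal and local background median were taken. The deposited log10 ratio and processed signals of the software, and the authors' log2 value table, served as alternatives, and the table equalled the software's log2 ratio, sample over reference, plus a constant per array for 89.8% to 97.0% of probes within 0.02, with column medians of 0.12 to 0.20. Flags for outliers, saturation and signal above background were deposited as well.

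Backgrounds were corrected by normexp with an offset of 50, each local background being limited to the array channel's median plus 3 scaled median absolute deviations. Without that limit, single backgrounds of up to 32904 raised the fitted Cy3 background deviation to 56.9, 315 and 352 on 3 arrays, against 0.698 to 7.56 on the others. Loess within arrays followed, with control spots at no weight and outlier spots left out. The brightest kept probe stood for each gene. Means of the 4 groups were estimated in R 4.3.3 with limma 3.58.1, with Benjamini-Hochberg adjustment over 22812 genes in each of 6 comparisons and a threshold of 0.05, and was tested on simulated data. Errors are standard errors. File headers put each replicate number on 1 slide, and deviations of same-numbered arrays correlated at 0.37 to 0.86 between groups, so a fit with slide, which is the replicate number, as a block was made as well. Its value is printed where it changes a call or a count, and for most named genes. The labels do not say that replicates came from separate cultures beyond calling them biological, so p-values measure the spread between these samples, and 2 arrays per group limit the precision.

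Named with values by array were genes passing any test and, per class, the brightest gene and the largest change in each of 2 comparisons. H2afz, H1f0, H2afx, H2afy, Hist1h4d, Hist2h4, Hist4h4 and Hist1h4i were added after their values were seen. Of the S phase genes that passed, 1 is not reported here by name. The members and lists were chosen with earlier results of these data known. Current names were found for 39 of 45 genes. Alternatives were other backgrounds, median centring, Cy3 alone, no filter, the mean of probes, each array left out and, after seeing the data, a correction for probe G and C content.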

Additional observations from a re-analysis of the deposited data

How the results depend on the processing

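Without a block, 0 of 45 histone genes passed in any comparison under every alternative run, including each array left out. With the replicate block, which is the slide, 6 passed in at least 1 comparison, and 11 with the block and the correction for G and C content. With the block and local backgrounds left unlimited 1 passed, H2afz with MRK-003 and Jagged1 cells (adjusted p = 0.0444), while Hist1h4f with Jagged1 in DMSO stood at 1.23 (0.0933). Numbers of genes passing, over all genes, were 41 for Jagged1 in DMSO (32 higher and 9 lower, or 33 and 24 with median centring), 502 for MRK-003 with Jagged1 cells (244 higher and 258 lower, or 76 and 158 from processed signals, 105 and 163 from the value table and 47 and 122 from Cy3 alone), 463 for the MRK-003 average (197 and 266, or 61 and 146, 78 and 147, and 39 and 119), 2 for the interaction and 0 for MRK-003 in vector co-cultures. With the replicate block they were 885, 2231, 2122, 89 and 7, and with the block and G and C correction 994, 2349, 2311, 102 and 7. Correction for G and C content alone gave 64 for Jagged1 in DMSO and 9 for the interaction. Unlimited backgrounds gave 4, 71, 73 and 0 for the first 4 of these comparisons, and, with the block, 106 for Jagged1 in DMSO and 0 for the interaction. Processed signals gave 14, 234, 207 and 1. Counts of 18, 268, 225 and 0 came from the deposited value table, and Cy3 alone 169 for MRK-003 with Jagged1 cells and 158 for the average. The interaction gave 0 without background subtraction and 0 with the mean of probes. Leaving out 1 array gave 0 to 30, 31 to 360, 46 to 233 and 0 to 1. Among named genes, the change with MRK-003 and Jagged1 cells turned sign for Hist1h3d (0.048) and Hist3h2bb (0.021) with median centring, Hist1h2af (-0.061) with the mean of probes, Hist1h2ab (-0.044), H2afx (-0.0061) and Hist3h2bb (0.019) with Cy3 alone, and Hist3h2bb (0.093) with the G and C correction, with or without the block. The Jagged1 change in DMSO turned for Hist3h2bb with median centring (-0.067) and with the G and C correction, with or without the block (-0.11). Leaving out 1 array moved the Jagged1 change in DMSO between -0.73 and 0.11 for Hist2h3c1, -0.29 and 0.0095 for Hist1h3d, -0.36 and 0.88 for Hist1h2af, -0.11 and 0.16 for Hist3h2bb, -0.017 and 1.14 for Hist1h1b, and -0.021 and 0.69 for Hist1h1e. It moved the MRK-003 change with Jagged1 cells between -0.33 and 0.51 for Hist2h3c1, -0.28 and 0.017 for Hist1h3d, -0.43 and 0.81 for Hist1h2af, -0.23 and 0.42 for Hist1h2ab, -0.15 and 0.12 for Hist3h2bb, -0.77 and 0.36 for Hist1h1b, -1.18 and 0.31 for Hist1h1e, -0.042 and 0.23 for H1f0, -3.63 and 0.19 for H1fx, -0.71 and 0.16 for Hist4h4, and -0.066 and 0.22 for H2afx. The causes were not tested.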
